A study of Mus musculus with 6 samples.

Results

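The primary cilium and ciliopathy genes were described in mouse inner medullary collecting duct (IMCD) cells, an epithelial cell culture model of the last stretch of the kidney tubule. The set was chosen by name: symbols that begin with Ift, Bbs, Nphp or Tctn and a digit, plus 30 listed genes of the cilium and of cystic kidney disease. It gave 50 genes with a value out of the 22180 genes on the array with a probe set of their own, 25 from the list and 25 from the symbol patterns. All 50 were bright enough to be among the 13308 genes tested. Of the listed genes, Pkd2, Arl6, Arl13b, Tmem216 and Inpp5e had no probe set with a single symbol and were not analysed here, and the same held for Tctn1.

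The cells were transduced with a lentivirus carrying GFP and ILK in 1 bicistronic vector, and ILK, integrin-linked kinase, is an adhesion scaffold between integrins and actin. In 3 samples the vector encoded wild-type ILK and in 3 the missense variant ILK-T173I, with 1 array per sample. The sample titles describe the cells as overexpressing the encoded ILK and do not mention the cells' own ILK. EGF was added to both groups (20 ng/ml, 15 minutes), and RNA was taken after a further 1 hour, so there was no sample without EGF or without an ILK vector. The sources used here state neither the vector's promoter nor how many stable lines stand behind each group, and if each group was 1 line, line and variant cannot be told apart. The samples are labelled biological replicates, and the p-values measure the spread between them. All values are log2 array signals, and a difference is T173I minus wild type in log2 units. Signals of different genes come from different probes, so they were not ranked against each other.

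The primary cilium is a single non-motile projection of the cell surface, built on the mother centriole. Intraflagellar transport (IFT) carries its parts: kinesin-2 moves trains of the IFT-B complex to the tip, and dynein-2 with the IFT-A complex brings them back. The BBSome couples membrane proteins to these trains, and the transition zone at the base gates what enters. On collecting duct cells the cilium carries the polycystins, and inherited defects of cilium genes cause polycystic kidney disease, nephronophthisis and the Bardet-Biedl, Joubert and Meckel syndromes.

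Many cilium genes carry an X-box in the promoter, the binding motif of RFX transcription factors, and the stretches below are shown to make this shared feature visible. RefSeq promoter windows of assembly GRCm38.p6, from 250 bases before to 50 bases after a start, were found for 43 of the 50 genes. The short RFX core motif GTTGCC, searched on both strands, was in the windows of 19 of these 43 genes (44.2%), against 14.7% of the 10449 tested genes with a window and 12.5% of all 32851 windows. A spaced pair, GTTNCCNNGGNNAC on either strand, which can overlap the core motif, was in 10 of the 43 genes (23.3%), against 1.92% of the tested genes and 1.29% of all windows. The 10 genes were Bbs1, Bbs4, Bbs7, Ift22, Ift57, Ahi1, Tmem231, Tctn2, Mks1 and Nphp4. A match is a run of letters and was not shown here to be bound. In the stretches that follow, read 5′ to 3′ on the strand of the gene, capitals mark the pair.
Bbs7: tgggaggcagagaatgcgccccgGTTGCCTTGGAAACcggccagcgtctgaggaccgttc
Tctn2: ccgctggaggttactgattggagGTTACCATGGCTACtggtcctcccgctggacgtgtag
Mks1: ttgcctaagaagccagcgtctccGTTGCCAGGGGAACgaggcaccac
Ift57: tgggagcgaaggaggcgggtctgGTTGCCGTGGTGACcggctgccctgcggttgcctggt
Ahi1: tagtctgaGTTACCTAGGCAACagcggcag
Tmem231: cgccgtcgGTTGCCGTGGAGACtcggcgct
Bbs1: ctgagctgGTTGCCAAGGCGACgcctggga

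In Bbs7 (chr3:36613474-36613533, minus strand), Tctn2 (chr5:124598664-124598723, plus), Mks1 (chr11:87853168-87853214, plus) and Ift57 (chr16:49699184-49699243, plus) the pair lay before the start, beginning 121, 62, 24 and 87 bases from it. In Ahi1 (chr10:20952560-20952589, plus), Tmem231 (chr8:111933781-111933810, minus) and Bbs1 (chr19:4906605-4906634, minus) it began 21, 11 and 1 bases past the start, and only 30 bases are shown. Of the 10 genes with the pair 9 had a negative difference, with a median of -0.20, and of the 33 with a window and no pair 22 did, with a median of -0.04. Over all tested genes 52.6% were negative. The 9 stayed negative without T173I replicate 2, from -0.28 (Bbs1) to -0.01 (Nphp4), and Ahi1 stayed positive at 0.36. Without that array 25 of all 50 members and 50.1% of all tested genes were negative. These are descriptions of small lists with no test. Bbs12, Ttc21b and Tulp3, described below, had neither motif in their windows.

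The cilium genes differed little between the groups, and none of the 50 passed the adjusted threshold. Differences ran from -0.52 for Bbs12, a chaperonin-like protein needed to assemble the BBSome, to 0.54 for Ttc21b, an IFT-A subunit. None reached 1.5-fold in either direction. In limma's test with Benjamini-Hochberg adjustment over all 13308 genes, the lowest adjusted p of a member was 0.45, and 0 members and 0% of all genes were below 0.05. At an unadjusted p under 0.05 there were 3 members higher in T173I (Ttc21b, Ahi1 and Tulp3), where 4.88% of all genes were, and 1 lower (Bbs12), where 5.31% were. With 50 members both counts are near or under the background. The 2 groups did not overlap in 4 members with higher T173I values (8%, against 7.23% of all genes) and in 5 with lower values (10%, against 7.95%).

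**Figure D1:**
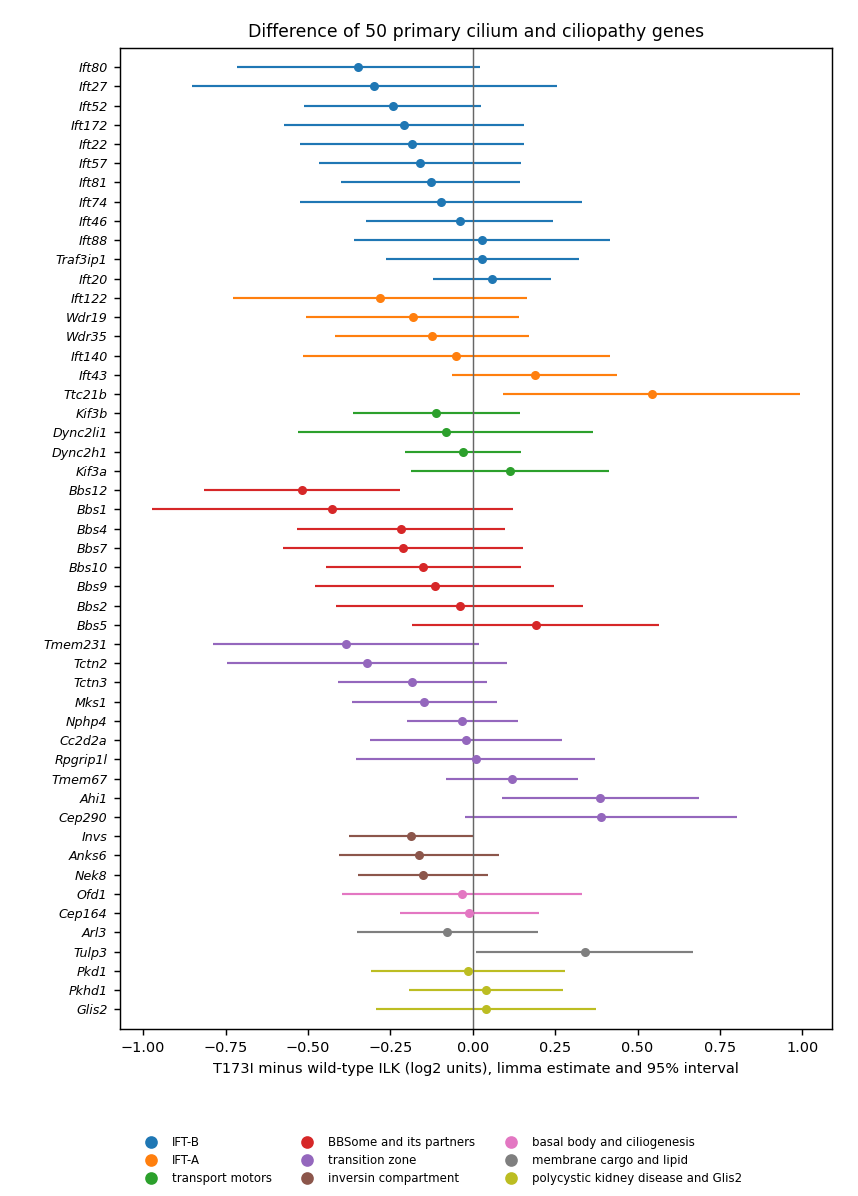
The limma difference of each of the 50 genes (T173I minus wild-type ILK, log2 units, horizontal axis), with its 95% interval as a line and its role as the colour. Points lie between -0.52 (Bbs12) and 0.54 (Ttc21b), and only the intervals of Bbs12, Ttc21b, Ahi1 and Tulp3 leave out 0.

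Most members had a negative difference, and over the 50 as a whole, though not for each gene, this rested on 1 array. Of the 50 members 36 (72%) had a difference below 0, against 52.6% of all genes, with a median of -0.09 against -0.01. T173I replicate 2 was the lowest of the 6 arrays in 31 members (62%), against 31.2% of all genes, and lay below every wild-type array in 36 (72%), against 39.8%. The median member was at -0.26 on T173I replicate 2 relative to its wild-type mean, at -0.01 on T173I replicates 1 and 3, and between -0.04 and 0.03 on the wild-type arrays. Without T173I replicate 2, 25 of 50 members (50%) had a negative difference, against 50.1% of all genes, and the median was -0.01.

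The counts at an unadjusted p also moved with single arrays. Without T173I replicate 1 there were 4 members higher (8%, against 9.83% of all genes in that fit) and 9 lower (18%, against 12.3%). There 0 members passed the adjusted threshold, where 1.17% of all genes passed. Bbs1 then had the lowest adjusted p of a member in limma's test, 0.068, with a difference of -0.68. Over the other alternatives its adjusted p in limma's test was 0.15 to 0.84. Without wild-type replicate 1 there were 0 higher, against 2.49% of all genes, and 1 lower, against 2.54%. Leaving out wild-type replicate 3 or T173I replicate 3 gave 1 higher and 2 lower in either case, where 4.08% and 4% of all genes were higher and lower in the first fit and 3.34% and 3.97% in the second. Without wild-type replicate 2 there were 2 higher and 1 lower, against 2.92% and 3.05%, and without T173I replicate 2 there were 3 and 1, against 4.13% and 3.49%. Leaving out T173I replicate 2 moved the difference of 33 of the 50 members by over 1.5 times, 29 of them towards 0 or past it. Leaving out another array moved 14 to 24. These moves were not counted over all genes, so they are not a result particular to the cilium genes. A difference near 0 also passes this ratio with a small shift.

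**Figure D2:**
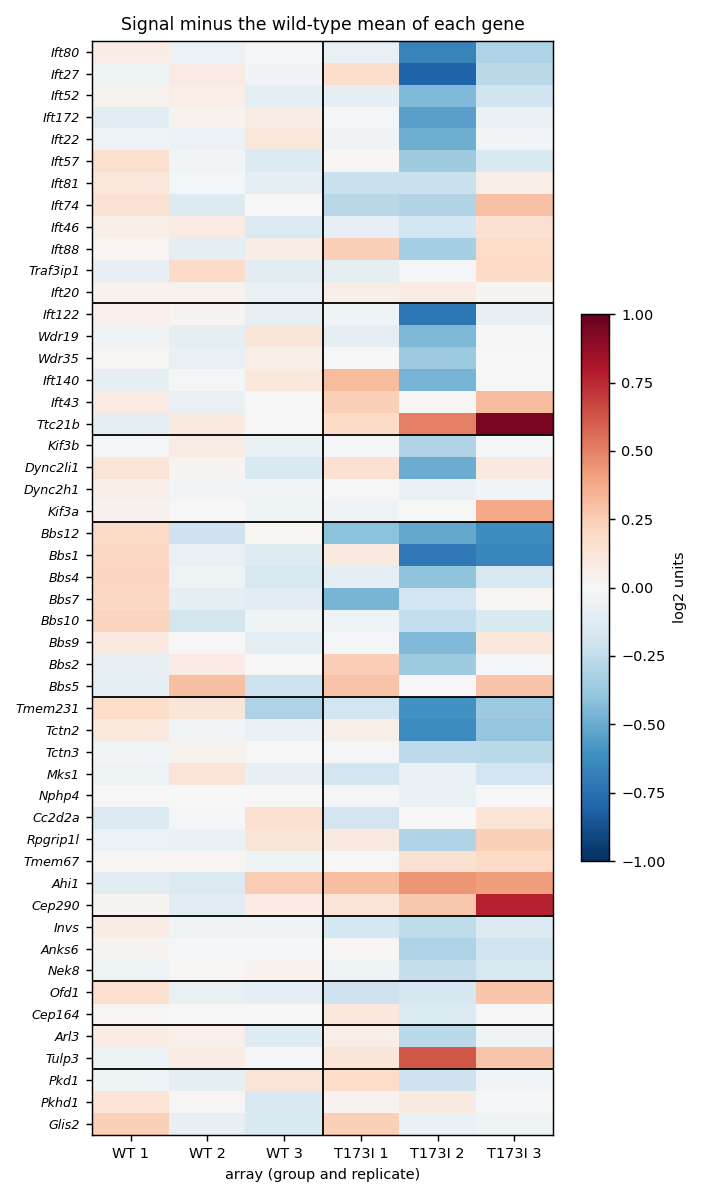
Each of the 50 genes (rows, in the role order of the other plots, with lines between roles) on each of the 6 arrays (columns), coloured by its signal minus the gene's wild-type mean in log2 units. The column of T173I replicate 2 holds the lowest value of 31 genes, while Ttc21b and Cep290 are brightest on T173I replicate 3.

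Over the 13308 tested genes, wild-type arrays correlated with each other at 0.989 to 0.993 and T173I arrays at 0.964 to 0.983. The medians of the arrays over all 41345 probe sets were 5.45 to 5.52. Of 10 markers of a collecting duct epithelium 9 passed the filter of 5.37, and the mean over the list was 8.64 to 8.71 on the wild-type arrays and 8.68 to 8.73 on the T173I arrays. Its members differed in sign: the keratins Krt8 and Krt18 had differences of 0.64 and 0.44 and the transcription factor Gata3 one of -0.78, each with groups that did not overlap. Their limma unadjusted p-values, 0.0016, 0.0040 and 0.0013, were lower than that of any cilium gene, and their adjusted p was 0.45. The adhesion proteins Cdh1 and Epcam had differences of -0.0021 and -0.17. Of the channels of this cell type, Aqp2 and Scnn1a had mean signals of 6.09 and 6.28, and Aqp3 was dimmer than the filter. For cells with many motile cilia, 4 of 9 markers passed the filter, and the mean of the list was 5.32 to 5.39 on the wild-type arrays and 5.23 to 5.41 on the T173I arrays. Proximal tubule markers (3 of 5 above the filter) averaged 5.55 to 5.60 and 5.37 to 5.63, and fibroblast markers (3 of 6) 5.15 to 5.59 and 5.11 to 5.69, in the same order. All 4 endothelial markers were below the filter, with means of 5.00 to 5.17 and 5.15 to 5.26. The mean of 4 leukocyte markers was 5.23 to 5.52 in wild type and 5.58 to 5.75 in T173I, so the groups did not overlap there. Of these only Cd68, a lysosomal protein, was above the filter, with a difference of 1.10, while the defining markers Ptprc, Cd3e and Itgam were below it. The part of any such cells in the results was not tested.

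The IFT-B complex, the train that carries cargo to the tip, had 12 members, of which 9 had negative differences, with a median of -0.14. Over all genes 52.6% were negative. Of these 9, Ift74 and Ift46 turned positive without T173I replicate 2 (0.0065 and 0.035) and the rest stayed negative. None of the 12 was below an unadjusted p of 0.05. Ift80, a subunit linked to skeletal ciliopathy, was at 10.06, 9.92 and 9.97 on wild-type replicates 1 to 3 and at 9.91, 9.32 and 9.68 on T173I replicates 1 to 3. The groups did not overlap, and T173I replicate 1 lay just under the lowest wild-type array. The wild-type mean was 9.98 ± 0.067 (SD, n = 3) and the T173I mean 9.64 ± 0.30 (SD, n = 3). The difference was -0.35 (95% interval -0.71 to 0.02). Ift52, a core subunit, had 8.51, 8.55 and 8.38 in wild type and 8.39, 8.04 and 8.28 in T173I, a difference of -0.24 (interval -0.51 to 0.02). Here T173I replicate 1 was inside the wild-type range and the other two T173I arrays were below it. Without T173I replicate 2 the differences were -0.19 for Ift80 and -0.15 for Ift52.

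Ift27, a small GTPase of the train that also acts in BBSome exit, showed the widest spread of the complex: 9.23, 9.35 and 9.23 in wild type against 9.44, 8.47 and 8.998 in T173I. T173I replicate 1 was the highest array and replicate 2 the lowest, and the difference of -0.30 was -0.05 without replicate 2 and -0.54 without replicate 1. Ift172, which binds at the tip, Ift22, Ift57, Ift74 and Ift46 likewise had their lowest value on T173I replicate 2, and their differences ran from -0.21 to -0.04. Ift88, whose loss in mice gives cystic kidneys, was at 8.08, 7.97 and 8.14 in wild type and 8.31, 7.73 and 8.25 in T173I, a difference of 0.03 (interval -0.36 to 0.42). Its T173I arrays lay on both sides of the wild-type range. Ift81, a tubulin-binding subunit, had a difference of -0.13. Ift20, which also acts at the Golgi, and Traf3ip1, an IFT-B subunit of nephronophthisis, had differences of 0.06 and 0.03. In all, T173I replicate 2 was below every wild-type array in 10 of the 12, where it was in 39.8% of all genes.

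The IFT-A complex, which works in return transport and in import of membrane proteins, had 6 members, 4 with negative and 2 with positive differences. Ttc21b, also known as IFT139 and mutated in nephronophthisis, was at 7.05, 7.25 and 7.15 in wild type and at 7.34, 7.65 and 8.09 in T173I. Every T173I array was above every wild-type array, and replicate 3 was far above replicate 1. The means were 7.15 ± 0.10 (SD, n = 3) and 7.69 ± 0.38 (SD, n = 3), which gives a difference of 0.54 (95% interval 0.09 to 0.99). Its limma unadjusted p was 0.025 and its adjusted p 0.47. Without T173I replicate 3 the difference was 0.34.

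Ift43, a small subunit, was at 10.52, 10.36 and 10.43 in wild type and 10.67, 10.45 and 10.75 in T173I, a difference of 0.19 (interval -0.06 to 0.44). T173I replicate 2 was inside the wild-type range and the other two T173I arrays above it, and without T173I replicate 3 the difference was 0.12. Ift122 was at 7.70, 7.68 and 7.56 against 7.61, 6.93 and 7.56, a difference of -0.28. Its T173I replicates 1 and 3 were near the wild-type arrays and replicate 2 was low, and without replicate 2 the difference was -0.06. Wdr19, Wdr35 and Ift140 had differences of -0.18, -0.12 and -0.05, and all had their lowest value on T173I replicate 2. Without that array they were at -0.05, 0.0012 and 0.16.

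The transport motors had 4 members with differences of -0.11 to 0.11. Kif3a, a motor subunit of kinesin-2 whose loss abolishes cilia, was at 8.75, 8.71 and 8.67 in wild type and 8.67, 8.71 and 9.09 in T173I. Only T173I replicate 3 was above the wild-type range, and without it the difference of 0.11 became -0.02. Kif3b, its partner, was at 7.33, 7.43 and 7.28 against 7.33, 7.05 and 7.34, a difference of -0.11 (interval -0.36 to 0.14). T173I replicate 2 was the low array, and without it the difference was -0.02. Dync2h1, the heavy chain of dynein-2, and Dync2li1, its light intermediate chain, had differences of -0.03 and -0.08.

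**Figure D3:**
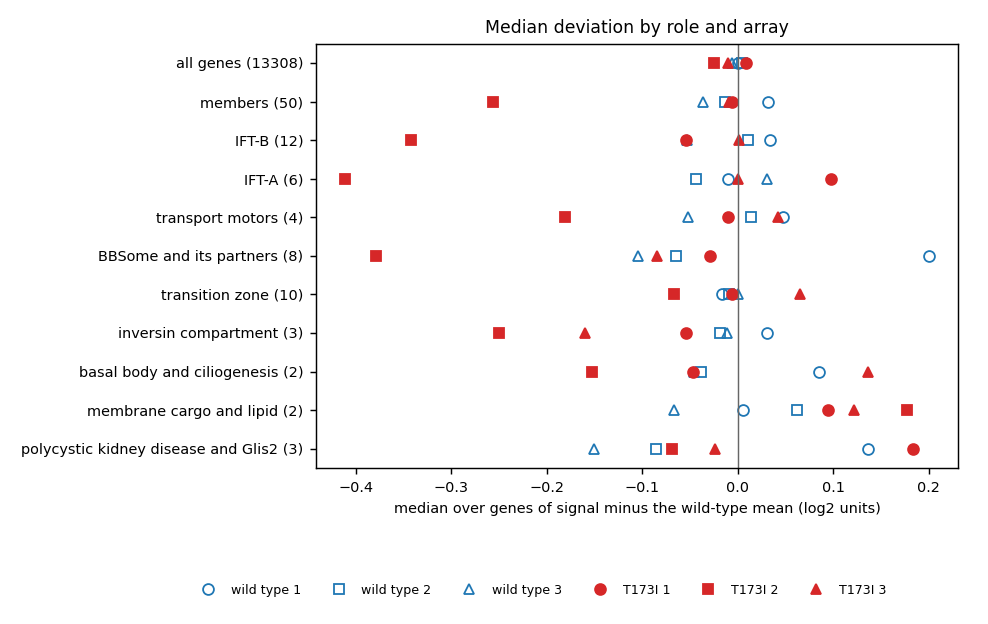
The median over the genes of a role (number of genes in brackets) of the signal minus the wild-type mean, in log2 units, for each array, with all 13308 tested genes and the 50 members on top. T173I replicate 2 (filled squares) lies at -0.34 for IFT-B, -0.41 for IFT-A and -0.38 for the BBSome group, while the median over all genes is at -0.03 on that array.

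Among the BBSome genes, 7 of 8 had negative differences, with a median of -0.18, where 52.6% of all genes were negative. Of these 7, Bbs2 and Bbs9 turned positive without T173I replicate 2 (0.12 and 0.05) and the rest stayed negative. Bbs12 had the lowest unadjusted p of all members. Bbs12 was at 7.91, 7.50 and 7.73 in wild type and at 7.30, 7.20 and 7.08 in T173I. The groups did not overlap, and here T173I replicate 3, not replicate 2, was the lowest array. Means were 7.71 ± 0.20 (SD, n = 3) and 7.20 ± 0.11 (SD, n = 3), a 1.43-fold change and a difference of -0.52 (95% interval -0.81 to -0.22). The limma unadjusted p was 0.0048 and the adjusted p 0.45. The direction of Bbs12 was kept without any 1 array, with differences from -0.62 to -0.42. Bbs10, a chaperonin-like protein of the same assembly step, was at 6.61, 6.20 and 6.35 against 6.34, 6.14 and 6.23, a difference of -0.15, and its groups overlapped. Without wild-type replicate 1 the difference of Bbs10 was -0.04.

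Bbs1, a BBSome subunit that binds the GTPase ARL6, was at 8.21, 7.93 and 7.87 in wild type and 8.09, 7.29 and 7.34 in T173I. T173I replicates 2 and 3 were below every wild-type array, while replicate 1 was inside their range. The difference was -0.43 (interval -0.97 to 0.12), and it was -0.28 with T173I replicate 2 left out and -0.68 with replicate 1 left out. Bbs4, a subunit that binds pericentriolar material, had a difference of -0.22 and Bbs7 one of -0.21, with the lowest Bbs7 value on T173I replicate 1. Bbs9, a core subunit, had -0.12 and Bbs2 -0.04. Bbs5, a lipid-binding subunit, was the only one of the 8 with a positive difference, 0.19. Wild-type replicate 1 was the highest array for 5 of the 8 genes, and its median in this group was 0.20 above the wild-type mean. It was the highest for 17 of the 50 members and for 2325 of the 13308 tested genes. Without this array Bbs4 and Bbs7 were each at -0.11, Bbs1 at -0.32 and Bbs2 at -0.08.

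In the transition zone, the gate at the ciliary base, 10 members split into 6 with negative and 4 with positive differences. Ahi1, a Joubert syndrome protein of the gate, was at 6.25, 6.21 and 6.61 in wild type and at 6.66, 6.79 and 6.77 in T173I. All T173I arrays were above all wild-type arrays, by a small margin over wild-type replicate 3. The means were 6.35 ± 0.22 (SD, n = 3) and 6.74 ± 0.073 (SD, n = 3), which gives a difference of 0.39 (95% interval 0.09 to 0.69). The limma unadjusted p was 0.018 and the adjusted p 0.45. Cep290, the large protein that links microtubules to the membrane, was at 7.65, 7.51 and 7.70 against 7.74, 7.89 and 8.39. These groups did not overlap either, with T173I replicate 1 only a little above wild-type replicate 3, and the difference was 0.39 (interval -0.02 to 0.80), or 0.20 without T173I replicate 3.

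Tmem231, a membrane protein of the Meckel complex, was at 9.12, 9.05 and 8.63 in wild type and 8.75, 8.33 and 8.57 in T173I. Wild-type replicate 3 lay among the T173I arrays, and the difference was -0.38 (interval -0.79 to 0.02). Tctn2, a tectonic of the same complex, was at 9.18, 9.06 and 9.02 against 9.15, 8.45 and 8.70, a difference of -0.32. T173I replicate 1 was in the wild-type range and replicates 2 and 3 were below it. Leaving out T173I replicate 2 brought the difference of Tctn2 to -0.16, and leaving out replicate 1 brought it to -0.51. Tctn3 had -0.18 on its brighter probe set and 0.21 on the other, which was dimmer than the filter, so the 2 probe sets had opposite signs. Tmem67, the receptor-like protein meckelin, had 0.12 on its brighter probe set and 0.17 on a second, dim one. Mks1 had -0.15, Nphp4 -0.03, Cc2d2a -0.02 and Rpgrip1l, a scaffold of the gate, 0.01. In Nphp4 the groups did not overlap, but its 6 arrays lay between 6.46 and 6.53.

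The inversin compartment, the stretch of the cilium just beyond the gate, had 3 members. All 3 were lowest on T173I replicate 2, as 31.2% of all genes were. Invs, inversin, the scaffold of the compartment, was at 6.90, 6.79 and 6.79 in wild type and at 6.65, 6.58 and 6.69 in T173I. The groups did not overlap, and the difference was -0.19 (interval -0.37 to 0.0015). Nek8, a kinase of nephronophthisis, was at 6.45, 6.51 and 6.53 against 6.44, 6.26 and 6.34, a difference of -0.15 in which T173I replicate 1 was 0.01 below the lowest wild-type array at this rounding. Anks6, which activates Nek8, was at 7.03, 6.98 and 6.99 against 7.01, 6.69 and 6.80, a difference of -0.16 that went to -0.09 with T173I replicate 2 left out and to -0.25 with replicate 1 left out. The 3 genes were 1.11-fold to 1.14-fold lower in T173I, with no p under 0.05.

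Tulp3, the adaptor that brings receptors to IFT-A for import into the cilium, was at 8.35, 8.49 and 8.41 in wild type and at 8.54, 9.04 and 8.69 in T173I. T173I was higher on all 3 arrays, most on replicate 2, the array on which most members were low. The means were 8.42 ± 0.067 (SD, n = 3) and 8.75 ± 0.26 (SD, n = 3), and the difference was 0.34 (interval 0.01 to 0.67). Its limma unadjusted p was 0.046 and its adjusted p 0.49. Without T173I replicate 2 the difference was 0.20. Arl3, a GTPase that releases lipidated cargo in the cilium, was at 10.19, 10.17 and 9.99 against 10.18, 9.84 and 10.08, a difference of -0.08 with overlapping groups.

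For the basal body, Cep164, a distal appendage protein that docks the centriole to membrane, was at 7.34, 7.33 and 7.33 in wild type and 7.44, 7.20 and 7.33 in T173I. Its difference was -0.01 (interval -0.22 to 0.20), with T173I arrays on both sides. Ofd1, a centriolar satellite and distal centriole protein, was at 8.33, 8.09 and 8.08 against 7.96, 7.997 and 8.44, a difference of -0.03 (interval -0.40 to 0.33).

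In the polycystic kidney genes and Glis2 the groups overlapped. Pkd1, polycystin-1, the large receptor mutated in dominant polycystic kidney disease, was at 6.93, 6.88 and 7.11 in wild type and 7.16, 6.77 and 6.95 in T173I. The difference was -0.02 (interval -0.31 to 0.28), and T173I replicate 1 was the highest array and replicate 2 the lowest. Pkhd1, fibrocystin, the gene of recessive disease, was at 7.46, 7.33 and 7.17 against 7.36, 7.41 and 7.31. All 3 T173I arrays lay inside the wild-type range, and the difference was 0.04 (interval -0.19 to 0.27). Glis2, a zinc finger transcription factor of nephronophthisis, was at 10.51, 10.18 and 10.11 against 10.50, 10.20 and 10.22, a difference of 0.04. These intervals bound the differences and do not show that the levels were equal.

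**Figure D4:**
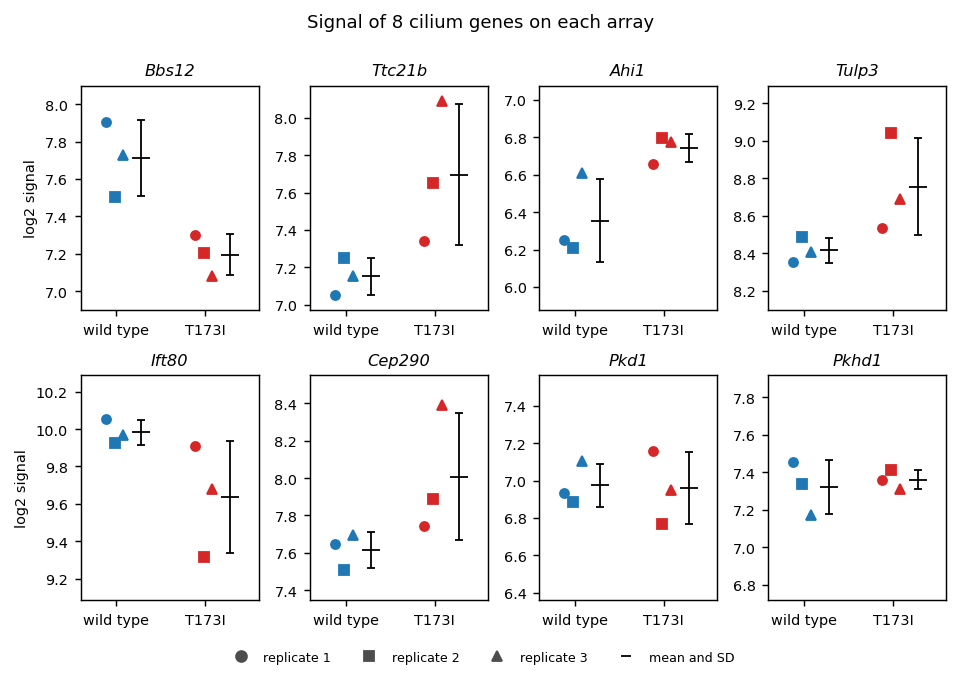
Log2 signal (vertical axis, a separate range for each gene) of 8 cilium genes in wild-type ILK (blue) and T173I (red) cells, 1 symbol per array with its shape giving the replicate, and the mean with its SD (n = 3) in black. The groups are apart in Bbs12, Ttc21b, Ahi1, Tulp3, Ift80 and Cep290 and overlap in Pkd1 and Pkhd1.

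Other genes of the cilium, from lists made alongside the member roles, also had 0 below an adjusted p of 0.05. Of 15 tested transport and BBSome genes outside the set, Hspb11 was higher and Ttc30b lower with an unadjusted p below 0.05. Over all genes 4.88% were higher and 5.31% lower at that threshold. Ttc30b, an IFT-B subunit, was at 7.13, 6.70 and 6.64 in wild type and 6.41, 5.77 and 6.41 in T173I. No arrays overlapped, and its difference of -0.63 (interval -1.14 to -0.11) was larger than that of any member, and it was -0.41 without T173I replicate 2. Its paralogs Ttc30a1 and Ttc30a2 are near copies, so its signal may be shared with them. Hspb11, the IFT25 subunit that pairs with Ift27, was at 7.68, 7.38 and 7.42 against 7.79, 7.76 and 8.16, a difference of 0.41 (interval 0.07 to 0.75). Wdr34, an intermediate chain of dynein-2, had -0.36.

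None of 11 further transition zone genes was below an unadjusted p of 0.05; Rpgr, a regulator of the gate, had -0.26, Tmem17 -0.23 and Atxn10 -0.17. Of 18 basal body and ciliogenesis genes only Cep83, a distal appendage protein, was below it, on the higher side, where 4.88% of all genes were. Cep83 was at 8.40, 8.38 and 8.41 in wild type and at 8.50, 9.10 and 9.27 in T173I, a difference of 0.56 (interval 0.09 to 1.03). T173I replicate 1 was close to the wild-type arrays and the other two T173I arrays were well above. Sdccag8 and Mapre1 had differences of 0.15 and 0.17.

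Among 7 tested transcription factors of the RFX family or of ciliogenesis 5 had negative differences, where 52.6% of all genes did. Of these 5 only Rfx2 changed sign without T173I replicate 2, from -0.05 to 0.23. In the fit to all arrays 2 of the 7 were lower at an unadjusted p under 0.05, where 5.31% of all genes were. Rfx3, an X-box binding factor of ciliogenesis, was at 8.15, 7.96 and 8.38 in wild type and 7.93, 7.67 and 7.88 in T173I. The groups were apart, with a difference of -0.34 (interval -0.65 to -0.03), a limma unadjusted p of 0.038 and an adjusted p of 0.49. Foxj1, the factor of motile ciliogenesis, was at 7.19, 6.68 and 6.48 against 6.51, 6.03 and 6.28, a difference of -0.51 with overlapping groups, or -0.30 without wild-type replicate 1. Rfx5 had -0.18.

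Of 15 ciliary signalling and Hedgehog genes, 12 had negative differences, where 52.6% of all genes did. At an unadjusted p under 0.05 there was 1, lower in T173I, where 5.31% of all genes were. Gas1, a membrane co-receptor of Hedgehog, was at 9.42, 9.29 and 8.82 in wild type and 8.86, 7.73 and 7.09 in T173I. The difference was -1.29 (interval -2.31 to -0.26), and T173I replicate 1 lay inside the wild-type range. Evc, a ciliary Hedgehog protein, had -0.23 and Unc119b, a carrier of myristoylated cargo, -0.18. The Hedgehog target genes Gli1 and Hhip were dimmer than the filter, and Ptch1, another target, had -0.20. For Ptch1 this was -0.08 without wild-type replicate 1, -0.09 without T173I replicate 2 and -0.37 without T173I replicate 1.

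Of 14 genes of cilium removal and the cell cycle, Aurka, the kinase that promotes cilium disassembly, was at 9.07, 9.33 and 8.98 against 9.41, 9.44 and 9.46. Its T173I arrays were all above the wild-type arrays, with a difference of 0.31 (interval 0.05 to 0.57). The adjusted p of Aurka in limma's test was 0.47. Trip6, a LIM-domain protein, had -0.45, and Cep97, a cap protein of the centriole, -0.26. The proliferation marker Mki67 had -0.15, while Top2a and Plk1 of the same list had 0.015 and 0.10. Of the 14 genes, 8 had positive and 6 negative differences. Of 11 other cystic kidney and liver genes, 0 were higher and 1 lower at that unadjusted threshold. The lowest adjusted p of these 11 in limma's test was 0.47. Bicc1, an RNA-binding protein whose loss gives cystic kidneys, was at 12.08, 11.83 and 11.89 against 11.79, 11.45 and 11.46. All T173I arrays were lower, with a difference of -0.36 (interval -0.67 to -0.06). Lrp5 and Prkcsh, genes of polycystic liver disease, had -0.36 and -0.21. Without T173I replicate 2, Wdr34 had -0.22, Rpgr -0.16, Evc -0.14, Lrp5 -0.23 and Prkcsh -0.13.

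**Figure D5:**
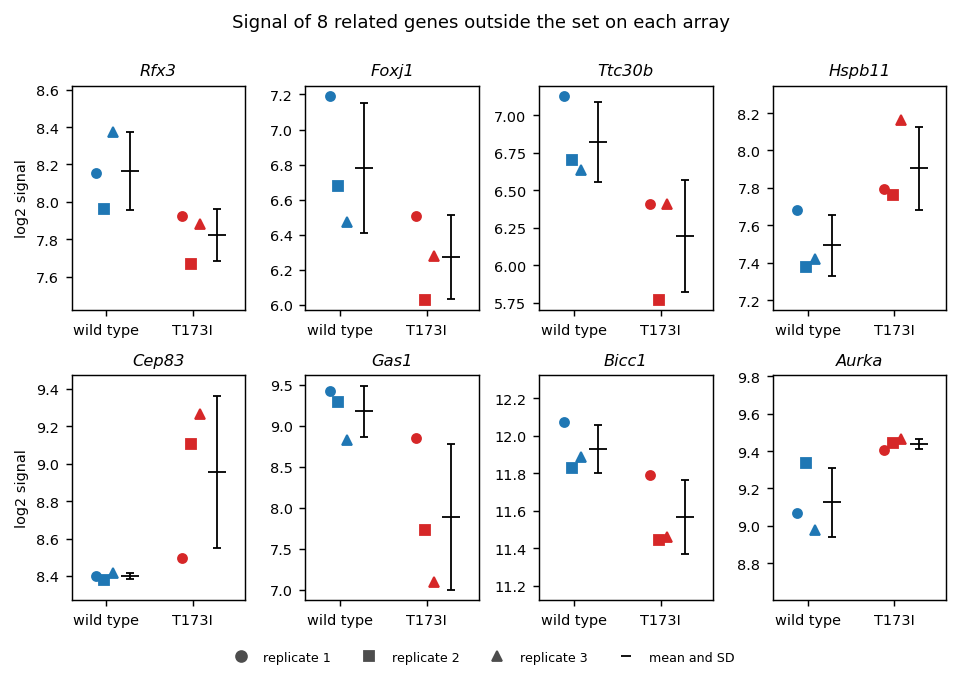
Log2 signal (vertical axis, a separate range for each gene) of 8 related genes outside the set, drawn as in the plot of the cilium genes, with the mean and SD (n = 3) in black. T173I replicate 1 lies nearer the wild-type arrays than the other T173I arrays in Cep83, Gas1 and Bicc1, whose differences are 0.56, -1.29 and -0.36.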

How the data were processed

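The authors deposited log2 signals, and the submitters' processing notes name RMA, a method that corrects background, quantile-normalizes arrays and summarises each probe set. The sources used here state neither its implementation, nor the probe set definition, nor a genome build. A shift of most transcripts one way would not be seen after RMA. Genes were named from the platform annotation, using only probe sets with 1 symbol (23521 of 41345), and of several the one with the brightest mean (22180 genes). Genes in the lowest 40% by mean signal were not tested. Groups were compared with limma (version 3.58.1, R 4.3.3), lmFit and eBayes over 6 arrays with no covariate, both directions, Benjamini-Hochberg adjusted over 13308 genes, and 95% intervals. With 3 arrays a group, an exact permutation p is at least 0.1. The number of arrays limits the precision.

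Members and gene lists were chosen with earlier results of these data known. Array values were given for Pkd1 and Pkhd1 and for the 2 lowest p in each role. They were also given for members below an unadjusted p of 0.05 or at least 1.5-fold apart. Ift27, Ift88, Ift122, Bbs10, Cep290, Tctn2 and Anks6 were added after their values were seen. Outside the set, so were Ptch1, Mki67, Top2a, Plk1, Gata3, Krt8 and the collecting duct channels. Of other cilium lists, up to 3 genes with the lowest p were named. The limma code was tested on simulated data. Exact ties occurred: 4 members had equal values on some pair of arrays.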

Additional observations from a re-analysis of the deposited data

How the results depend on the processing

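Alternatives were no filter on dim genes, a stricter one that left out 60%, a trended robust eBayes prior, 3 further normalizations, the mean of probe sets, array weights, the replicate number as a block, and leaving out each array. No member passed the adjusted threshold under any of these 15. Over all genes the count past it was 0 to 156 when an array was left out, 156 being without T173I replicate 1, and 0 otherwise. Members higher at an unadjusted p under 0.05 numbered 3; there were 2 with the stricter filter, quantile normalization once more or cyclic loess, 4 with the replicate block, 6 with array weights, 0 to 4 with an array left out, and 3 otherwise. Lower members numbered 1, and 2 without the filter, 7 with array weights, 3 with the replicate block, 1 to 9 with an array left out, and 1 otherwise. The median difference of members ranged from -0.14 to -0.0059 with an array left out.

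Of 282 values for 19 named members, 268 kept their direction and 14 reversed, none of them past the threshold. With array weights Ofd1 had 0.16 and Pkd1 0.011. Leaving out an array gave -0.15 to 0.019 for Arl3, -0.069 to 0.052 for Cep164, -0.058 to 0.16 for Glis2, -0.019 to 0.19 for Kif3a, -0.19 to 0.053 for Ofd1, -0.11 to 0.080 for Pkd1 and -0.036 to 0.11 for Pkhd1. The cause was not tested. Negative differences numbered 36 or 37 of 50 members under the other normalizations, where T173I replicate 2 was lowest in 30 to 35, and 29 with array weights. Same-numbered arrays did not deviate together (correlations of 0.049, 0.067 and 0.048), and the replicate numbers were taken as names, not pairs. Leaving out arrays for genes beyond the 19 was chosen after seeing the data. Dim second probe sets limit Tctn3 and Tmem67.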
